A study of Mus musculus with 17 samples.

Results

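The 10 genes described here encode the enzymes that write and erase cytosine methylation in mouse DNA, together with the factors that the writers depend on. They were chosen by name from the list Dnmt1, Dnmt3a, Dnmt3b, Dnmt3l, Uhrf1, Tet1, Tet2, Tet3, Tdg and Hells, and all 10 were found among the 23980 genes of the deposited expression tables. All 10 passed the filter on low counts at both stages. Dnmt3l is also a gene that the study deleted, so its level in the mutants is a check of the labels.

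Poly(A)-selected RNA was sequenced in 17 libraries from mice of the strain labelled C57BL6/J, whose genotypes were WT, Pld6 KO, Dnmt3l KO and the double mutant DKO. In 6 libraries the cells were leptotene/zygotene (L/Z) spermatocytes, germ cells in early meiotic prophase, sorted by flow cytometry from animals 3 to 4 weeks old, as 2 libraries from each of the genotypes other than DKO. In 11 libraries the material was whole testis on postnatal day 0 (P0), of which 4 were Pld6 KO, 3 were DKO, 2 were Dnmt3l KO and 2 were WT, so each P0 value mixes germ cells (prospermatogonia) with a larger number of somatic cells. Pld6 encodes a mitochondrial protein needed for PIWI-interacting RNAs, and both mutations affect the silencing of retrotransposons in male germ cells. The mutant lines had been backcrossed to C57BL/6J, both deletions are carried by the whole animal, and the labels give each library as a biological replicate. Whether the WT animals were littermates, and how many animals entered a library, is not given in the sources used here.

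Methylation at CG sites is copied after DNA replication by Dnmt1, which Uhrf1 brings to hemimethylated DNA, and Hells, a chromatin remodeller, opens chromatin for the methyltransferases. New methylation is placed by Dnmt3a and Dnmt3b. Dnmt3l has no catalytic activity of its own, binds these enzymes and is needed for the methylation of retrotransposons and paternally imprinted regions in prospermatogonia. Tet1, Tet2 and Tet3 oxidise 5-methylcytosine, and the glycosylase Tdg cuts out the oxidised bases, which base excision repair replaces with cytosine.

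All 10 genes are protein-coding in the GRCm38 annotation, the build of the deposited tables, and each value counts fragments over the exons of the whole gene. The maintenance genes lie at chr9:20907206-20959888 (Dnmt1), chr17:56303337-56323486 (Uhrf1) and chr19:38930262-38970470 (Hells). Those of the de novo group lie at chr12:3801559-3914443 (Dnmt3a), chr2:153649411-153687730 (Dnmt3b) and chr10:78042287-78063622 (Dnmt3l). The erasers lie at chr10:62804570-62887469 (Tet1), chr3:133463677-133545136 (Tet2), chr6:83362373-83457208 (Tet3) and chr10:82629814-82650799 (Tdg).

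Library depth was 5194238 to 14578341 fragments at L/Z and 9900346 to 23498968 at P0. The labelled cells were checked with marker lists. At L/Z the meiotic gene Sycp3 stood at 254 to 1037 CPM (counts per 1000000, scaled to the effective library size) and the Sertoli cell gene Sox9 at 1.43 to 18.9 CPM, whereas at P0 Sycp3 stood at 4.02 to 34.7 CPM and Sox9 at 33.8 to 120.0 CPM. The summed level of 9 L/Z spermatocyte markers was 1883 and 3398 CPM in WT, 2378 and 3859 CPM in Pld6 KO and 7194 and 6370 CPM in Dnmt3l KO spermatocytes, and none of these markers was at 0 in any L/Z library. The sum of 7 spermatogonial markers ran the other way, from 1242 to 1338 CPM in WT to 594 to 871 CPM in Dnmt3l KO. The part of this shift in the values below was not tested. The ribosomal RNA gene Rn45s took 8.27 and 8.06% of fragments in WT replicate 1 and Pld6 KO replicate 1 at L/Z and 0.134 to 0.301% in the other 4, and with a term for these libraries 104 genes instead of 33 passed in Pld6 KO against WT, none of them a member. At P0 the share of Rn45s was 0% in all 4 Pld6 KO libraries. Every other P0 library held some, with the lowest share in WT replicate 2 (0.104%) and the highest in DKO replicate 1 (4.43%). This difference follows genotype, and its part in the P0 comparisons with Pld6 KO was not tested. Single P0 libraries stood apart in some markers. In Dnmt3l KO replicate 1 the late germ cell gene Ldhc stood at 65.7 CPM against 0.838 to 2.08 CPM in the other 10. Among the P0 libraries the sum of 8 germ cell markers was lowest in Pld6 KO replicate 1, at 119.8 CPM. That of 5 blood markers was highest in DKO replicate 2, at 177 CPM.

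Compared between genes per transcript length, in FPKM (fragments per kilobase of transcript, scaled to library size), the maintenance factors stood highest at both stages. In WT spermatocytes the order was Hells (244 and 274 FPKM), Dnmt1 (119 and 109), Uhrf1 (90.1 and 95.3), Dnmt3b (36.0 and 29.9), Dnmt3a (19.6 and 17.0), Tet3 (15.7 and 10.6), Tdg (2.84 and 1.86), Dnmt3l (1.09 and 0.637), Tet2 (0.911 and 0.424) and Tet1 (0.159 and 0.0429). Dnmt3l and Tet2 overlapped there, and the other neighbours in the order did not overlap in their 2 libraries. In WT testis at P0 the order was Dnmt1 (58.7 and 52.9 FPKM), Uhrf1 (49.3 in both), Hells (46.6 and 46.0), Dnmt3a (28.4 and 26.4), Tet3 (13.96 and 9.66), Tdg (9.86 and 9.77), Tet2 (7.07 and 6.34), Dnmt3b (6.02 and 4.78), Dnmt3l (2.91 and 3.98) and Tet1 (3.26 and 3.59). Tet3 overlapped Tdg and Dnmt3l overlapped Tet1 at P0. The authors' FPKM were scaled separately for each stage, and the stages also differ in tissue and read type, which cannot be told apart from stage, so no test was made between stages.

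**Figure D1:**
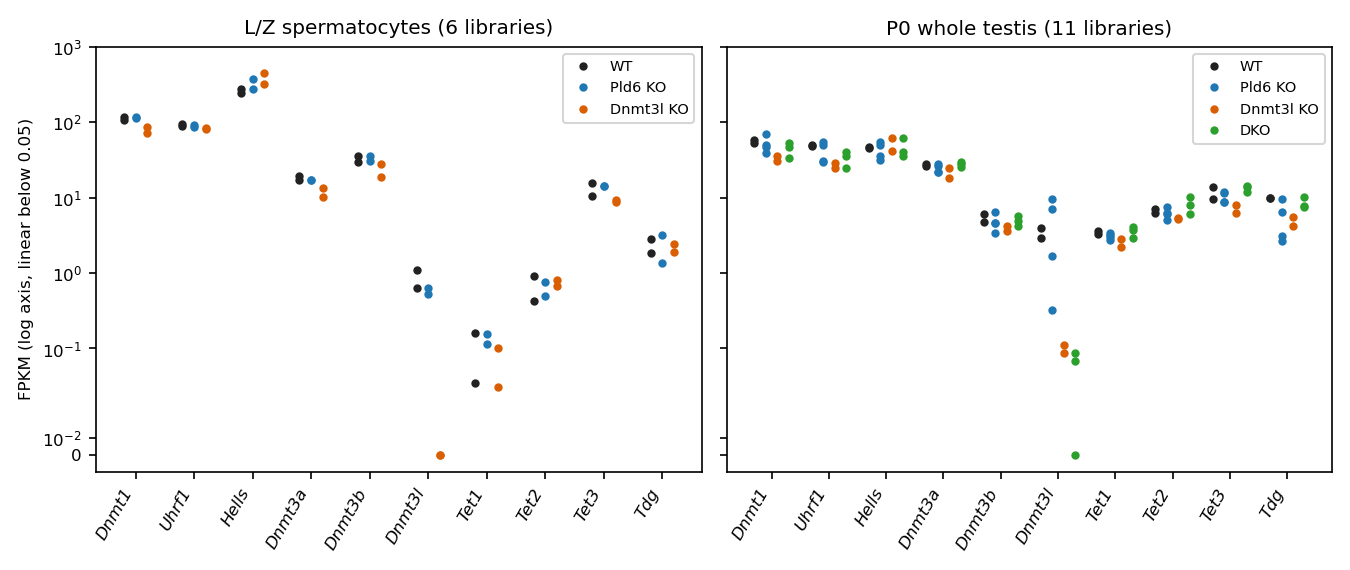
Level of each gene in every library, in FPKM on a log axis that is linear below 0.05, for L/Z spermatocytes (left, 6 libraries) and P0 whole testis (right, 11 libraries), with 1 point per library coloured by genotype. Dnmt3b lies above Dnmt3a in all 6 L/Z libraries and below it in all 11 P0 libraries, and Dnmt3l is at 0 in both Dnmt3l KO spermatocyte libraries.

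Ratios within a library do not depend on how the library was scaled, though none was corrected for transcript GC content. Some of these ratios differed between the stages in every library. The ratio of Dnmt3b to Dnmt3a, the pair of de novo methyltransferases, was 1.76 to 2.13 in FPKM over the 6 L/Z libraries and 0.148 to 0.230 over the 11 P0 libraries. The share of Tet3 in the summed FPKM of the 3 Tet genes was 90.7 to 95.9% at L/Z and 44.7 to 61.3% at P0. That of Hells to Dnmt1 was 2.05 to 5.12 in FPKM at L/Z and 0.675 to 2.02 at P0. The stages did not overlap in these ratios, whatever the genotype, though for Hells to Dnmt1 the nearest libraries almost met, and stage cannot be told apart from tissue and read type here either.

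Dnmt3l was described first because it is both a member and a deleted gene. In spermatocytes the WT libraries held 19 and 11 Dnmt3l counts, the Pld6 KO libraries 6 and 10, and both Dnmt3l KO libraries 0. The Dnmt3l KO libraries were thus below all others, although WT itself held few counts. Against a floor of 3 counts per library, the level was at least 3.12-fold lower in Dnmt3l KO than in WT, and the test in edgeR gave an adjusted p (false discovery rate, FDR) of 0.0278. The same difference reached an FDR of 0.122 without WT replicate 1, 0.158 without Dnmt3l KO replicate 1 and 0.117 without Dnmt3l KO replicate 2.

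At P0 the WT libraries held 53 and 72 Dnmt3l counts, the Dnmt3l KO libraries 2 and 1, and the DKO libraries 1, 0 and 3. All 5 libraries labelled as lacking Dnmt3l were at or under the floor, so the labels and the reads matched. The level in WT was at least 20.2-fold above Dnmt3l KO and at least 23.5-fold above DKO. In the fit of all 11 libraries these differences had an FDR of 0.257 for Dnmt3l KO and 0.244 for DKO by the quasi-likelihood test of edgeR, so neither passed. In fits of the compared groups alone the FDR was 0.0402 and 0.000775. Pld6, the other deleted gene, stood at 29.1 and 29.9 CPM in WT spermatocytes and at 0 in both Pld6 KO libraries. At P0 Pld6 stood at 4.84 and 3.36 CPM in WT, at 0 to 0.201 CPM in Pld6 KO and at 0 in DKO.

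The 4 Pld6 KO testes, in which the Dnmt3l gene is intact, held 6, 135, 30 and 145 Dnmt3l counts, or 0.495, 10.7, 2.57 and 14.6 CPM. WT testes held 4.50 and 6.04 CPM. Replicates 2 and 4 were thus above both WT libraries and replicates 1 and 3 below them, and no difference between the groups passed (log2 fold change 0.42 ± 0.81 SE, FDR = 0.985, edgeR). The highest Pld6 KO library held 29.4 times the Dnmt3l of the lowest, while the other members ranged over 1.24-fold (Tet1) to 3.58-fold (Tdg). The summed level of 8 markers of germ cells at birth was 119.8, 496, 380.3 and 507 CPM in the same 4 libraries, a range of 4.23-fold. In whole testis, fewer germ cells and less Dnmt3l RNA per germ cell cannot be told apart.

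As a share of that marker sum, Dnmt3l was 1.30 and 2.17% in the WT libraries and 0.414, 2.16, 0.675 and 2.88% in the Pld6 KO libraries. The order of the 4 libraries was thus the same after division by the marker sum. Among these markers Tdrd9 ranged over 13.5-fold, Dppa4 over 10.1-fold and Ddx4 over 2.57-fold. The spermatogonial marker Zbtb16 stood at 4.13, 15.9, 31.3 and 3.72 CPM, so replicates 1 and 4, the lowest and highest for Dnmt3l, were both low in Zbtb16. Gfra1, a receptor subunit of early spermatogonia, stood at 14.7, 28.9, 69.5 and 7.25 CPM. The sum of all 7 spermatogonial markers was 61.5, 144, 206 and 101 CPM, beside 114 and 92.6 CPM in WT. Over the whole list replicate 4 thus lay between the WT libraries, and only replicate 1 lay below both. The part of germ cell number and stage in the Dnmt3l values was not tested.

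Genes with a pattern most like that of Dnmt3l were sought over the 6 P0 libraries of WT and Pld6 KO, by the root mean square difference of log2 CPM around each gene's own mean. Among 13793 genes the nearest were Fndc3c1 (0.27), Fnd3c2 (0.31), Fam160a1 (0.40), Col2a1 (0.40) and Bzrap1 (0.43), against a median of 1.5 over all genes. Tdrd9, a helicase of the piRNA pathway, ranked 9 and Dppa4 ranked 14, whereas Ddx4 ranked 542. Dnmt3a and Dnmt3b, the enzymes to which Dnmt3l binds, ranked 4789 and 11708. In Dnmt3l KO testes, which have lost Dnmt3l RNA, Fndc3c1 stood at 10.4 and 10.2 CPM, compared with 6.20 and 7.72 CPM in WT. In DKO testes, which lack Dnmt3l too, it stood at 6.93, 3.34 and 4.32 CPM.

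**Figure D2:**
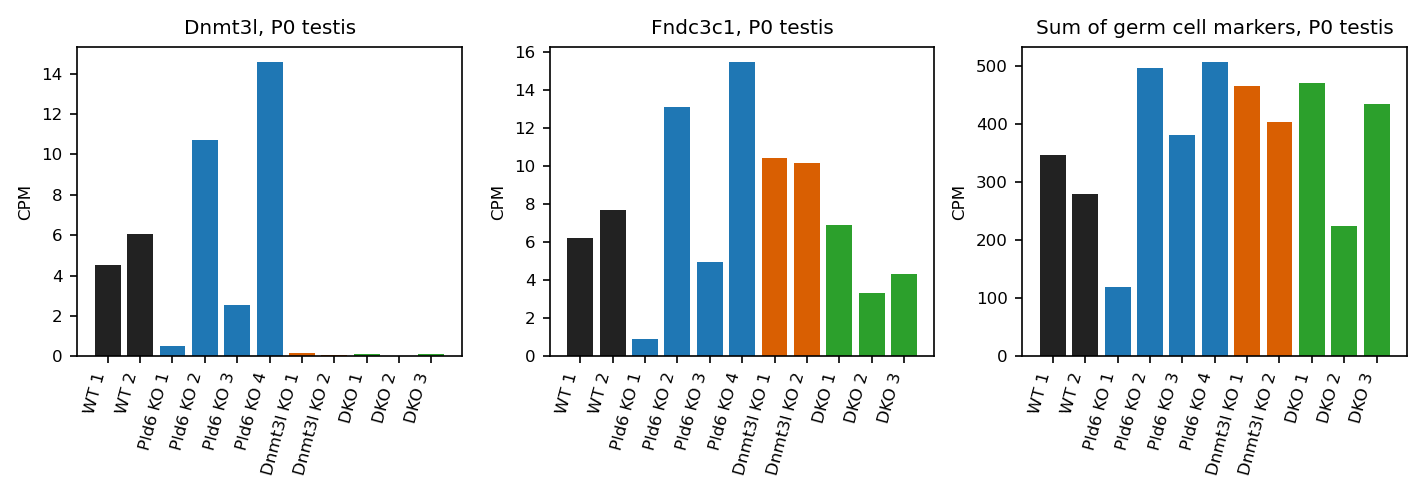
Bars give, in CPM for each of the 11 P0 testis libraries, Dnmt3l (left), Fndc3c1, the gene with the nearest pattern over WT and Pld6 KO (middle), and the sum of 8 germ cell markers (right), with colour for genotype. The Pld6 KO libraries run from 0.495 to 14.6 CPM for Dnmt3l, and the 5 libraries that lack the gene are near 0 for Dnmt3l but not for the other measures.

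The comparison with WT covers the loss of a methylation cofactor and the loss of a protein needed for PIWI-interacting RNAs. It asks whether either was followed by changes in the rest of the methylation machinery. At L/Z, Dnmt3l itself was the only member that passed an FDR of 0.05 by edgeR in Dnmt3l KO against WT, and 1.93% of the 14662 genes tested passed in that direction. DESeq2 called Dnmt3a instead and gave no adjusted p for Dnmt3l. In Pld6 KO against WT no member passed by edgeR or DESeq2, none had an unadjusted p under 0.05 beside 9.17% of genes, and the background was 0.225% of genes in edgeR and 0.866% in DESeq2. In Dnmt3l KO against Pld6 KO no member passed by edgeR or DESeq2. Dnmt3l was among 4 members with an unadjusted p under 0.05, beside 17.5% of genes. The background was 0.0477% in edgeR (0.0409% higher and 0.00682% lower) and 4.64% in DESeq2. For Dnmt3l KO against WT the background in either direction was 7.2%, and for Pld6 KO against WT it was 0.0409% lower. These comparisons share libraries.

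Dnmt1, the maintenance methyltransferase, stood at 608 and 558 CPM in WT spermatocytes, 600 and 602 CPM in Pld6 KO and 369 and 456 CPM in Dnmt3l KO. Both Dnmt3l KO libraries were the lowest and did not overlap the other groups. The log2 fold change against WT was -0.50 ± 0.22 SE, with an FDR of 0.181 (edgeR), so the difference did not pass. Uhrf1, its recruiting partner, stood at 294 and 310 CPM in WT, 278 and 306 CPM in Pld6 KO and 258 and 278 CPM in Dnmt3l KO, a log2 fold change of -0.17 ± 0.20 SE for Dnmt3l KO.

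Hells differed in the other direction. It stood at 690 and 777 CPM in WT spermatocytes, 785 and 1087 CPM in Pld6 KO and 891 and 1281 CPM in Dnmt3l KO. Both mutants were above WT without overlap, by a log2 fold change of 0.35 ± 0.27 SE in Pld6 KO and 0.57 ± 0.27 SE in Dnmt3l KO, and neither difference passed (FDR = 0.704 and 0.208, edgeR). Both sizes moved with single libraries, as the first was 0.57 without Pld6 KO replicate 1 and 0.09 without replicate 2, and the second 0.79 and 0.28 without Dnmt3l KO replicates 1 and 2. Within a library, the FPKM ratio of Hells to Dnmt1 was 2.05 and 2.52 for WT and 2.37 and 3.29 for Pld6 KO. It was 4.38 and 5.12 for Dnmt3l KO, which overlapped neither other group. Transcripts of Hells and Dnmt1 differ in GC content (37.7 and 54.0%), and the ratio was not computed with a correction for it.

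Among the de novo enzymes, Dnmt3a stood at 180 and 156 CPM in WT spermatocytes, 159 and 158 CPM in Pld6 KO and 93.2 and 124 CPM in Dnmt3l KO. Dnmt3b stood at 142 and 117 CPM in WT, 121 and 145 CPM in Pld6 KO and 71.6 and 112 CPM in Dnmt3l KO. For both genes the Dnmt3l KO libraries lay below all 4 others. The log2 fold change of Dnmt3a against WT was -0.63 ± 0.21 SE with an FDR of 0.0963 in edgeR, and the DESeq2 Wald test gave an FDR of 0.0450, beside 15.7% of genes called by DESeq2. That of Dnmt3b was -0.49 ± 0.25 SE with an FDR of 0.227 (edgeR), and it was -0.23 without Dnmt3l KO replicate 1 and -0.86 without replicate 2.

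Of the erasers, only Tet3 was well measured in spermatocytes, at 168 and 114 CPM in WT, 153 and 156 CPM in Pld6 KO and 93.8 and 101 CPM in Dnmt3l KO. The Dnmt3l KO libraries were again the lowest, and the log2 fold change against WT was -0.54 ± 0.22 SE (FDR = 0.153, edgeR). It was -0.23 without WT replicate 1. Tet1 stood at 0.573 to 2.20 CPM and Tet2 at 3.83 to 8.22 CPM over all 6 L/Z libraries. For Dnmt3l KO against WT their log2 fold changes were -0.64 ± 0.79 SE and 0.15 ± 0.45 SE, and no difference between genotypes passed.

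Counting members whose Dnmt3l KO and WT libraries did not overlap at L/Z, 6 of 10 were lower, Dnmt3l among them, and 1 was higher. Over all genes tested 27.5% were lower and 28.1% higher (55.7% in either direction). The median log2 fold change of the members was -0.49, beside -0.04 over all genes. Leaving out Dnmt3l, whose direction the deletion fixes, the median was also -0.49. For Pld6 KO against WT, 1 member was lower (Dnmt3l) and 1 higher (Hells) without overlap, beside 21.3% and 21.6% of genes (42.8% in either direction). Dnmt3l held few counts there, 6 and 10 in Pld6 KO against 19 and 11 in WT. The median of the members was 0.02. For Dnmt3l KO against Pld6 KO, 7 members, Dnmt3l among them, were lower without overlap and none was higher, beside 26.2% and 26.9% of genes. The median was -0.53, with or without Dnmt3l. Tet3 had the smallest unadjusted p there after Dnmt3l, at -0.67 ± 0.23 SE on the log2 scale (FDR = 0.190, edgeR).

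At P0, no member passed an FDR of 0.05 in any comparison between genotypes in edgeR. In Dnmt3l KO against WT, 5 of 10 members, Dnmt3l among them, had an unadjusted p under 0.05, beside 12.9% of genes. At an FDR of 0.05 the background was 0 of 15901 genes. DESeq2 called Dnmt3l there, beside 0.73% of genes. In Pld6 KO against WT 1 member had an unadjusted p under 0.05, beside 5.06% of genes. None passed in DESeq2 either, and the background was 0.00629% of genes in edgeR and 0.0944% in DESeq2. In DKO against WT the 1 member with an unadjusted p under 0.05 was Dnmt3l, beside 7.97% of genes. DESeq2 called Dnmt3l there too, beside 0.453% of genes, and the background in edgeR was 0.0126%. In DKO against Pld6 KO 3 members, Dnmt3l among them, had an unadjusted p under 0.05, beside 6.02% of genes. In DKO against Dnmt3l KO 4 members did, beside 17.8%.

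Dnmt1 at P0 stood at 311 and 279 CPM in WT, 262, 208, 366 and 248 CPM in Pld6 KO, 165 and 193 CPM in Dnmt3l KO and 252, 181 and 282 CPM in DKO. The Dnmt3l KO libraries were below both WT libraries, whereas Pld6 KO and DKO overlapped WT. The log2 fold change was -0.72 ± 0.26 SE in Dnmt3l KO (FDR = 0.322) and -0.31 ± 0.24 SE in DKO (FDR = 0.797), by edgeR. Uhrf1 stood at 169 and 168 CPM in WT, 170, 103, 186 and 104 CPM in Pld6 KO, 102 and 85.5 CPM in Dnmt3l KO and 124, 84.4 and 136 CPM in DKO. All 5 libraries without Dnmt3l were below both WT libraries for Uhrf1, with log2 fold changes of -0.85 ± 0.30 SE in Dnmt3l KO and -0.55 ± 0.27 SE in DKO (FDR = 0.314 and 0.636, edgeR). The sum of 7 Sertoli cell markers was 2859 and 2556 CPM in WT and 1930 and 1633 CPM in Dnmt3l KO. The sum of 6 Leydig cell markers ran the other way, from 1520 and 1565 CPM to 1962 and 2666 CPM. That of the 8 germ cell markers did too, from 346 and 279 CPM to 465 and 403 CPM. In Dnmt3l KO against WT 14 replication genes had a median log2 fold change of -0.32, beside 0.03 over all genes. The part of cell composition in the P0 values was not tested.

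To use all 11 libraries, the loss of Dnmt3l and the loss of Pld6 were also fitted as 2 additive factors. For the loss of Dnmt3l the log2 fold change was -0.49 ± 0.19 SE for Uhrf1 (FDR = 0.623, edgeR) and -0.38 ± 0.17 SE for Dnmt1 (FDR = 0.694, edgeR). Hells, at 91.8 to 184 CPM over the P0 libraries, had 0.14 ± 0.18 SE. Besides Dnmt3l, Uhrf1 and Dnmt1 were the only members with an unadjusted p under 0.05 for either factor, none passed, and 0 of 15901 genes passed for the loss of Dnmt3l. DESeq2 called Dnmt3l and no other member. For the loss of Pld6 no member passed in edgeR or DESeq2, and the background was 0.0377% in edgeR.

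Dnmt3a was the most abundant de novo enzyme at P0, at 273 and 254 CPM in WT, 208, 251, 269 and 206 CPM in Pld6 KO, 176 and 234 CPM in Dnmt3l KO and 274, 248 and 293 CPM in DKO. Dnmt3b stood at 24.0 and 19.0 CPM in WT, 18.7, 18.9, 25.6 and 13.7 CPM in Pld6 KO, 17.3 and 14.8 CPM in Dnmt3l KO and 20.05, 17.4 and 23.1 CPM in DKO. For both genes the Dnmt3l KO libraries were below WT and below DKO. The log2 fold changes of Dnmt3l KO against WT were -0.36 ± 0.20 SE for Dnmt3a and -0.42 ± 0.27 SE for Dnmt3b (FDR = 0.444 and 0.517, edgeR). Without Dnmt3l KO replicate 1 they were -0.18 and -0.54.

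Tet3 at P0 stood at 153 and 105 CPM in WT, 96.4, 129, 127 and 94.9 CPM in Pld6 KO, 68.7 and 87.2 CPM in Dnmt3l KO and 159, 132 and 152 CPM in DKO. The Dnmt3l KO libraries were the lowest of the 11. The log2 fold change of Dnmt3l KO against WT was -0.73 ± 0.23 SE (FDR = 0.302, edgeR). The DKO exceeded Dnmt3l KO by 0.92 ± 0.21 SE, which had an FDR of 0.0874 in edgeR and 0.00443 in DESeq2. The other members had larger FDRs in that comparison, which 0.0818% of genes passed in edgeR (0.0566% higher and 0.0252% lower) and 4.1% in DESeq2.

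Tet1 and Tet2, low in spermatocytes, were well measured in testis at birth. Tet1 stood at 46.3 and 50.6 CPM in WT, 39.2 to 48.5 CPM in Pld6 KO, 32.3 and 41.0 CPM in Dnmt3l KO and 42.1, 58.7 and 53.8 CPM in DKO. Tet2 stood at 65.1 and 57.8 CPM in WT, 46.7 to 68.2 CPM in Pld6 KO, 50.5 and 48.7 CPM in Dnmt3l KO and 57.2, 94.2 and 73.9 CPM in DKO. For both genes the Dnmt3l KO libraries lay below those of WT and DKO, and neither difference passed (for DKO against Dnmt3l KO, FDR = 0.193 for Tet1 and 0.178 for Tet2, edgeR).

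**Figure D3:**
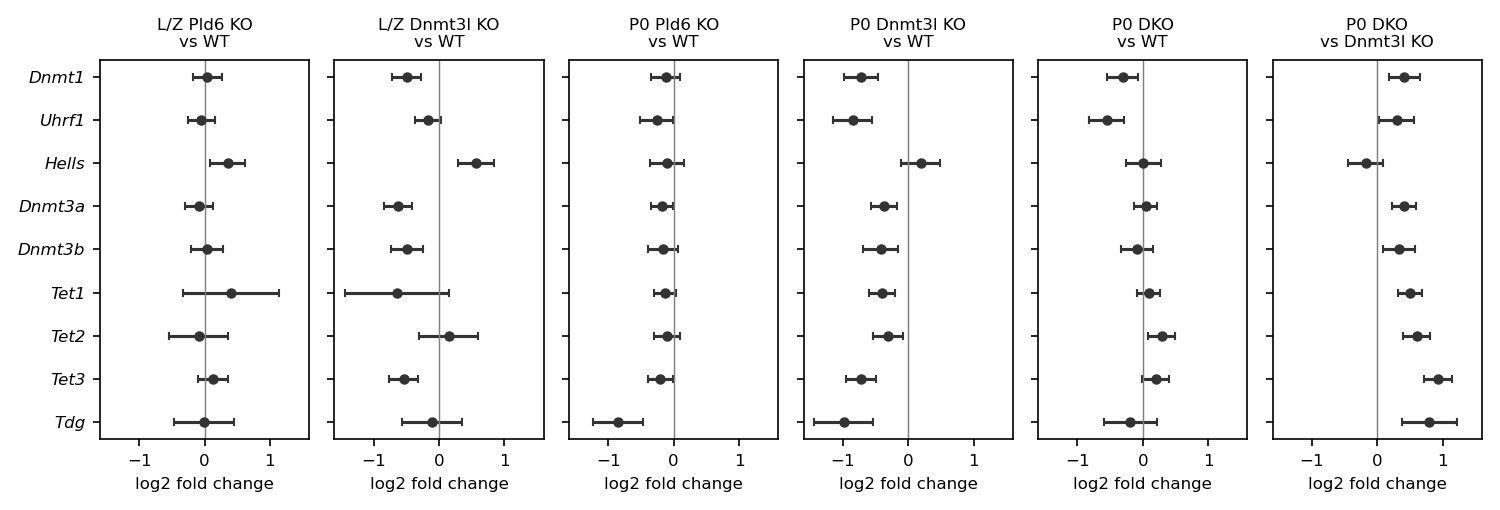
Log2 fold change of 9 members (points) with its standard error (bars) in 6 comparisons, from the edgeR fit, with Dnmt3l left out because its level in the mutants is at the counting floor. In P0 Dnmt3l KO against WT all points except Hells lie below 0, and in P0 DKO against Dnmt3l KO all points except Hells lie above 0 (both comparisons use the same Dnmt3l KO libraries).

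In Dnmt3l KO against WT at P0, 9 of 10 members were lower without overlap and none was higher, beside 24.3% and 25.3% of all genes (49.6% in either direction). The median log2 fold change of the 10 members was -0.57, beside 0.03 over all genes. Dnmt3l, whose direction the deletion fixes, was among the 9, and without it the median was -0.42. In DKO against Dnmt3l KO 6 members were higher without overlap, beside 19.4% of genes (38.1% in either direction). Against Pld6 KO, the DKO had Dnmt3l lower without overlap, by at least 31.6-fold, and Tet3 higher (log2 fold change 0.40 ± 0.17 SE, FDR = 0.798, edgeR), beside 3.04% and 3.31% of genes (6.35% in either direction). Against WT, the DKO had 2 members lower without overlap, Dnmt3l and Uhrf1, beside 13.4% of genes, and the median was -0.04. Pld6 KO had 1 member, Tdg, lower without overlap, beside 5.69% (5.83% of genes were higher), and the median was -0.15. Without Dnmt3l KO replicate 1, the library with late germ cell transcripts, the median for Dnmt3l KO against WT was -0.55. That median includes Dnmt3l, and Tet3 stood at -0.57 without this library.

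GC content moved with these comparisons. In each library the deviation of all genes from their stage mean was correlated with their GC content, as a description across genes that are not independent. At L/Z the Spearman correlation was 0.35 and 0.34 for the WT libraries, 0.19 and -0.22 for the Pld6 KO libraries, and -0.26 and -0.43 for the Dnmt3l KO libraries. At P0 it was -0.38 and -0.39 in Dnmt3l KO and -0.06 to 0.35 in the other 9 libraries. Transcripts of Hells are 37.7% GC, at percentile 1.83 of the tested genes, those of Tet1 and Tet2 are 43.7 and 45.4%, and those of Dnmt1, Dnmt3a, Dnmt3b, Uhrf1 and Tet3 are 51.9 to 54.0%.

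When each library was given an offset for gene GC content and length, the members changed by different amounts. At L/Z the log2 fold change of Hells in Dnmt3l KO against WT went from 0.57 to -0.08, and that of Dnmt3a from -0.63 to -0.52. At P0 Tet3 went from -0.73 to -0.29 and Dnmt3a from -0.36 to -0.01, whereas Uhrf1 went from -0.85 to -0.76 and Dnmt1 from -0.72 to -0.45. The excess of Tet3 in DKO over Dnmt3l KO went from 0.92 to 0.31. The median of the members in Dnmt3l KO against WT went from -0.49 to -0.28 at L/Z and from -0.57 to -0.28 at P0. After the offset 9 of 10 members were negative in each case. Before it 8 were negative at L/Z and 9 at P0, beside 52.2 and 47.3% of all genes. With the offset the share of negative genes and the median over all genes were not computed. The medians and counts of the members include Dnmt3l, whose direction the deletion fixes.

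**Figure D4:**
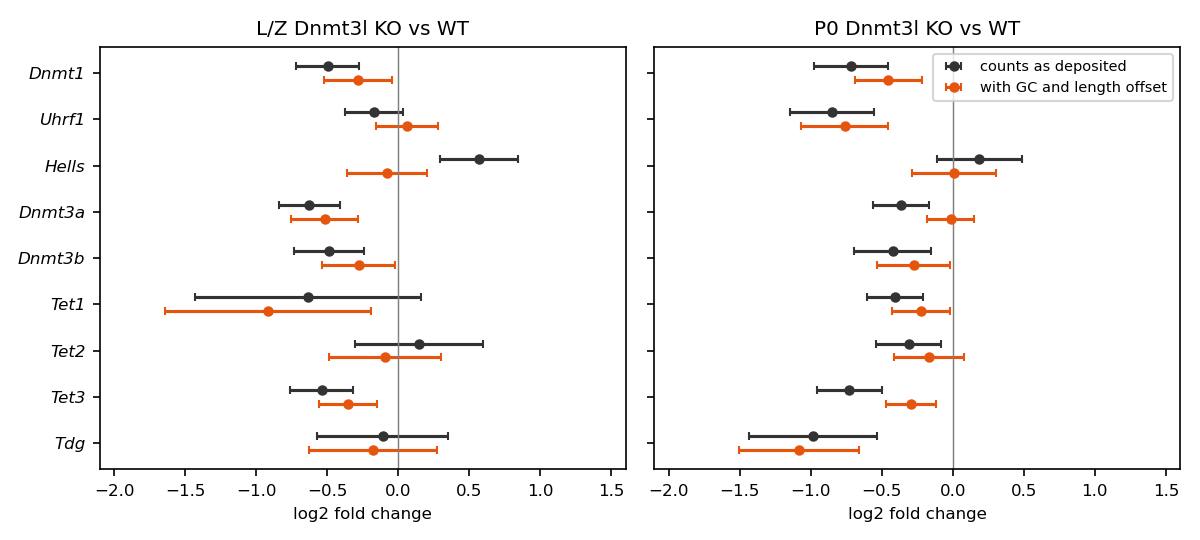
Log2 fold change of 9 members in Dnmt3l KO against WT with its standard error, from the deposited counts (dark) and after the offset for gene GC content and length (orange), at L/Z (left) and P0 (right). Hells crosses 0 at L/Z (0.57 to -0.08) and Dnmt3a reaches -0.01 at P0, while Uhrf1 at P0 stays at -0.76.

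Tdg was a special case because of a processed copy. The gene Gm9855, named Tdg-ps2 in RefSeq and annotated on chromosome 10 (chr10:42052558-42055453, GRCm38), is a pseudogene on the same chromosome as Tdg. Its 1194-base transcript in GENCODE differs from the Tdg transcript by 9 mismatches and no gaps, an identity of 99.2%, and 76.5% of its 50-base windows and 61.3% of its 100-base windows, the read lengths used at L/Z and P0, occur exactly in Tdg. In the other direction, 30.1% of the 50-base windows and 23.5% of the 100-base windows of the Tdg transcript (2959 bases) occur exactly in this 1194-base transcript. The RefSeq positions of the copy cover a longer stretch than the GENCODE transcript. The part of Tdg shared with that longer stretch was not tested. A single read within the shared stretch can be assigned to 1 of the genes only where it crosses a base that differs. At P0, where reads came in pairs, the mate can also assign a fragment, which the window shares leave out. For this reason a stretch of the coding sequence with 3 of the differences, given in capitals, is shown. It covers bases 981 to 1040 of the Tdg transcript and 820 to 879 of the Gm9855 transcript, in the sense of each.
Tdg: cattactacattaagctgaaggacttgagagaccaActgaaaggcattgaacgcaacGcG
Gm9855: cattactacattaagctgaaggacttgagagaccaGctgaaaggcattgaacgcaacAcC

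More fragments were counted on the copy than on Tdg in every library. Tdg held 5.98 to 12.8% of the summed counts of both genes at L/Z and 8.89 to 36.5% at P0. At P0 Tdg itself stood at 30.8 and 30.1 CPM in WT, 8.34, 9.70, 19.9 and 29.9 CPM in Pld6 KO, 13.4 and 17.4 CPM in Dnmt3l KO and 32.0, 24.3 and 23.9 CPM in DKO. All 4 Pld6 KO libraries and both Dnmt3l KO libraries were below WT.

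The sum of Tdg and Gm9855 was more even, at 119.9 and 86.2 CPM in WT, 94.1, 81.0, 95.5 and 90.9 CPM in Pld6 KO, 70.8 and 84.1 CPM in Dnmt3l KO and 91.6, 66.7 and 78.2 CPM in DKO. In Pld6 KO against WT the log2 fold change was -0.85 ± 0.38 SE for Tdg alone and -0.19 for the sum. In Dnmt3l KO against WT it was -0.98 ± 0.45 SE for Tdg alone and -0.41 for the sum. In DKO against Dnmt3l KO it was 0.79 ± 0.42 SE for Tdg alone and 0.03 for the sum. None of these passed (edgeR), and how the counting divided the reads shared by both genes was not tested, so the level of Tdg alone is uncertain.

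**Figure D5:**
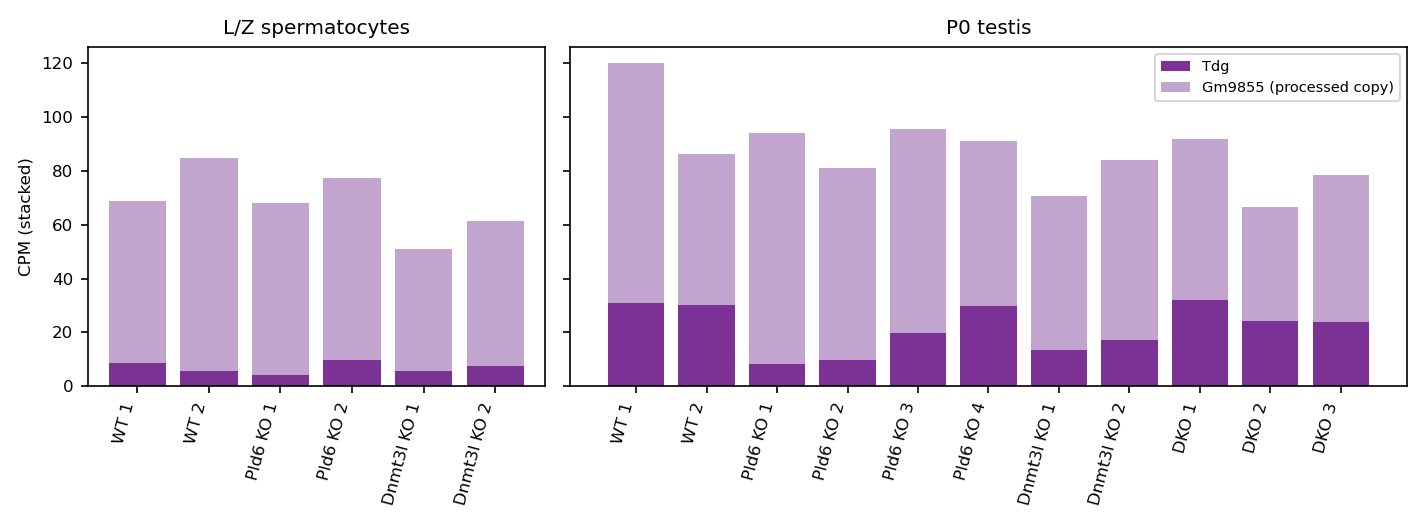
Stacked bars give the CPM of Tdg (dark) and of its processed copy Gm9855 (light) in each library, at L/Z (left) and P0 (right). The copy takes the larger share in all 17 libraries, and at P0 Tdg runs from 8.34 to 32.0 CPM while the sum runs from 66.7 to 119.9 CPM.

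Whether members moved together was examined over the 11 P0 libraries, in 36 pairs of the 9 members other than Dnmt3l. Log2 CPM were used, with p-values from 100000 permutations, two-sided. The permutations moved libraries freely across genotypes, so the p-values also take in differences between genotypes. No p-value was computed for r within genotypes. For 2 pairs both coefficients passed after Benjamini-Hochberg adjustment over the 36 pairs. Dnmt1 and Uhrf1 had Pearson's r = 0.88 (permutation p = 0.00055, adjusted 0.0099) and Spearman's rho = 0.91 (permutation p = 0.00027, adjusted 0.00972). Leaving out the 2 libraries farthest from the median of Dnmt1 gave r = 0.90, and within genotypes, after removal of each genotype's mean, r was 0.80. With the GC and length offset r was 0.93. Without the offset, 0.208% of the tested genes had an r with Dnmt1 at least as high as that of Uhrf1.

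Dnmt3a and Tet3 had Pearson's r = 0.91 (permutation p = 0.00012, adjusted 0.00432) and Spearman's rho = 0.86 (permutation p = 0.00115, adjusted 0.0166). Without the 2 libraries farthest from the median of Dnmt3a r was 0.81, and within genotypes it was 0.84. With the GC and length offset it was 0.29, and within genotypes 0.60. Without the offset, 0.497% of the tested genes had an r with Dnmt3a at least as high as that of Tet3. Tet1 and Tet2 had r = 0.77 and rho = 0.77, with adjusted permutation p of 0.0625 and 0.0539, and did not pass. For Tet1, 0.642% of the tested genes reached the r of Tet2. Of the 36 coefficients 29 were positive, and the share of positive coefficients over all genes was not computed.

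The RefSeq promoter windows of the 10 members (250 bases before to 50 after a transcription start, GRCm38.p6) were searched for letters of the E2F type, the motif of factors active before DNA replication. The words searched, on either strand, were TTTGGCGC, TTTCCCGC, TTTGCCGC and TTTCGCGC. At least 1 window held such a word for 3 of the 10 members, Dnmt1, Uhrf1 and Hells, beside 2.6% of the 27025 genes with a window and 4.24% of those tested here. The stretches around the words before the start are shown in the sense of the gene, with the word in capitals. They lie at chr9:20952809-20952868 (minus strand) for Dnmt1, chr17:56304102-56304161 (plus strand) for Uhrf1 and chr19:38930902-38930961 (plus strand) for Hells, and the words begin 219, 185 and 62 bases before the start.
Dnmt1: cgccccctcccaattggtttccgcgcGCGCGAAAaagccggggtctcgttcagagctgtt
Uhrf1: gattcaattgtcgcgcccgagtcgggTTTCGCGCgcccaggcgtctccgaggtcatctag
Hells: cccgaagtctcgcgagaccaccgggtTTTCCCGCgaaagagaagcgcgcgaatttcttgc

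In Dnmt1 the word is read on the strand opposite to the gene. The same Dnmt1 window held another of these words 33 bases after the start. The windows of the other 7 members held none of these letters. Hells, which holds the word too, had r = 0.09 and rho = 0.25 with Dnmt1 over the P0 libraries (adjusted permutation p of 0.848 and 0.601). With the GC and length offset its r with Dnmt1 was 0.52, within genotypes it was 0.41, and with both it was 0.64. Such matches are a description of the letters, and binding was not measured here.

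Other genes of the pathway were taken from 5 lists. Among 9 readers of methylated DNA and related proteins, 1 rose in Dnmt3l KO against WT at L/Z, Uhrf2, a paralogue of Uhrf1 (log2 fold change 1.02 ± 0.23 SE, FDR = 0.0300, edgeR). Among 14 replication genes, 1 rose in the same comparison, Ccne2, a cyclin of the entry into S phase (1.41 ± 0.22 SE, FDR = 0.00871, edgeR). Among the genes of the methyl donor cycle, of which 9 of 10 were tested at L/Z, 1 fell, Shmt2, a mitochondrial enzyme of one-carbon metabolism (-1.12 ± 0.24 SE, FDR = 0.0239, edgeR). The background was 5.27% of genes higher and 1.93% lower, and each of these lists held 1 such gene. With the GC and length offset 293 genes instead of 1055 passed in this comparison. Uhrf2, Ccne2 and Shmt2 were not examined with the offset or with single libraries left out.

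No gene of the base excision repair list, which acts after Tdg, passed in any comparison in edgeR. In Dnmt3l KO against WT at L/Z 3 of its 10 genes had an unadjusted p under 0.05, beside 26.7% of all genes. Among 15 tested partners and regulators, such as the maternal factor Dppa3 and the deubiquitinase Usp7, none passed and 4 had an unadjusted p under 0.05. No gene of the 5 lists passed in any other comparison. In DKO against WT at P0 the 14 replication genes had a median log2 fold change of -0.51, beside 0.01 over all genes, with 5 at an unadjusted p under 0.05, beside 7.97% of all genes, and none passing.

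The difference between stages in a mutation's effect was tested over the 14 libraries of the shared genotypes. For Dnmt3l KO no member passed by edgeR or DESeq2, none had an unadjusted p under 0.05, and 0.665% of 16547 genes passed in edgeR. The member with the smallest FDR was Uhrf1, whose effect was higher at L/Z than at P0 by 0.64 ± 0.38 SE (FDR = 0.400, edgeR). For Pld6 KO no member passed by edgeR or DESeq2 and none had an unadjusted p under 0.05. In edgeR 0.0121% of genes passed.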

How the data were processed

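RNA was extracted from sorted L/Z spermatocytes and P0 testes, and stranded poly(A) libraries were read as single 50-base reads (L/Z) or pairs of 100-base reads (P0). The authors aligned them with TopHat2 to mm10 and quantified genes with Cuffdiff (versions not given in the sources used here). For each gene and library the deposited table of a stage gives the estimated count of its fragments, and the FPKM that the authors' Cuffdiff run scaled by transcript length and library size. Of the estimated counts, 97.8% (L/Z) and 97.7% (P0) were whole within 1e-06. Because table replicates are numbered from 0, the lowest number in a group was read as label 1 and so on. Genes with a failed status, 6 at L/Z and 2 at P0, were left out.

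After rounding, counts were tested with edgeR 4.0.16 in R 4.3.3 (filterByExpr, TMM, glmQLFit and glmQLFTest), all groups of a stage in 1 fit, since most groups had 2 libraries. A gene passed at a Benjamini-Hochberg FDR under 0.05. P-values measure the spread between these libraries. CPM are counts per 1000000 of the TMM-scaled library size, and log2 CPM used a prior count of 2. Where a group held 3 counts or fewer per library, a fold was computed against 3 counts, which covers counting error only. The scripts were tested on simulated data. Alternatives used DESeq2 1.42.0 and limma 3.58.1, and the offset used a loess span of 0.3 with GENCODE M21 transcripts. Sequences came from RefSeq GRCm38.p6 (windows for all 10 members) and GENCODE. Tables and figures used scipy 1.17.1, pandas 2.3.3, numpy 2.4.6 and matplotlib 3.10.9 under Python 3.11.15.

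The members, the 5 pathway lists and the marker lists were chosen with earlier results of these data known. All members are named, and of each pathway list up to 4 passing genes per comparison. Gene patterns nearest to Dnmt3l were sought where a gene's mean count was 20 or more. Dnmt3c, a rodent copy of Dnmt3b, and DNA methylation were not analysed here.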

Additional observations from a re-analysis of the deposited data

How the results depend on the processing

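Of 12 counts of members passing, 116 values came from alternatives other than leaving out a library, and 14 of these differed from the count reported. In Dnmt3l KO against WT at L/Z the count of 1 (Dnmt3l) fell to 0 with a filter at a mean of 50 counts, which removed Dnmt3l, with limma on log2(FPKM + 1) or log2(FPKM + 0.1), and with the GC and length offset. DESeq2 kept a count of 1 there, but the gene was Dnmt3a, since its adjusted p for Dnmt3l was NA. The DESeq2 Wald test raised the count from 0 to 1 in P0 Dnmt3l KO against WT, DKO against WT, DKO against Pld6 KO and the 2-factor loss of Dnmt3l (Dnmt3l in each), and in DKO against Dnmt3l KO (Tet3). A fit of the compared groups alone raised it to 1 (Dnmt3l) in P0 Dnmt3l KO and DKO against WT, and fitting without a filter on low counts raised it to 1 for the loss of Dnmt3l. Apart from the filter, the cause was not tested. Over all genes, the number passing in Dnmt3l KO against WT at L/Z was 1055 as reported and 1 (without Dnmt3l KO replicate 1) to 2357 (crossed block) under the alternatives, 1364 with the replicate block. For the difference between stages, the fit of the compared groups alone, limma, the term for libraries rich in Rn45s and the GC and length offset were not run.

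Leaving out each library in turn gave 0 to 1 members in Dnmt3l KO against WT at L/Z, with 0 without WT replicate 1, Dnmt3l KO replicate 1 or Dnmt3l KO replicate 2. At P0 it gave 0 to 1 in DKO against WT, in DKO against Pld6 KO and for the loss of Dnmt3l. The 1 was Dnmt3l, reached without Pld6 KO replicate 1, with an FDR in edgeR of 0.0184, 0.00718 and 0.00174. A group left with 1 library was assumed to vary like the others. The other counts stayed at 0. The labels do not say that a replicate number marks shared animals or a batch, and same-numbered deviations had correlations of -0.33 to 0.48. The highest was for WT and Pld6 KO at L/Z, whose replicates 1 are the libraries rich in Rn45s. With it as a block the count was 1 in Dnmt3l KO against WT at L/Z and 0 elsewhere. Chosen after seeing the data, a crossed block at L/Z gave 2 members in Dnmt3l KO against WT and 1 in Dnmt3l KO against Pld6 KO, and the sum of Tdg and Gm9855 was added in the same way.

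Single members gave 2381 further values, of which 2261 moved by no more than the standard error (or kept a call), 100 moved by more without a call, 14 gained a call and 6 lost one, and none with a call changed sign, while 152 changed sign without a call. At L/Z 4 of the 10 members had fewer than 20 CPM, and Dnmt3l had at most 19 counts.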

Other observations

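The P0 library of Dnmt3l KO replicate 1 held transcripts of meiotic and later germ cells, with Sycp3 at 34.7 CPM and Sycp1 at 52.6 CPM, compared with 4.02 to 9.22 CPM and 9.57 to 31.4 CPM in the other 10 P0 libraries. Among the members it held the most Hells RNA of all P0 libraries, 184 CPM, and the FPKM ratio of Hells to Dnmt1 was 2.02, compared with 0.675 to 1.21 in the others. Dnmt3l had 2 counts in this library, so its genotype label was matched by the reads. Without it, Hells stood at -0.15 ± 0.36 SE (log2 fold change) in Dnmt3l KO against WT.

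The promoter windows of the members differed in CG content. The 3 windows of Dnmt3l held 6, 4 and 3 CG sites in 300 bases, a ratio of observed to expected CG of 0.27, 0.22 and 0.11, and the first of 3 windows of Dnmt1 had 0.10, whereas the windows of Tet2, Hells and Tdg had ratios of 1.17, 1.06 and 0.99. The median over all windows was 0.38 and over windows of tested genes 0.70. Methylation at these windows was not measured here.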
